A study of Mus musculus with 6 samples.

Results

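The troponin and tropomyosin genes expressed in striated muscle were followed here in mouse gastrocnemius, a calf muscle made mostly of fast fibres. The 10 members were the rows of the count table whose Ensembl ID belonged to Tnnt1, Tnnt2, Tnnt3, Tnni1, Tnni2, Tnnc1, Tnnc2, Tpm1, Tpm2 or Tpm3, out of 51911 genes in the table. All 10 passed the filter on low counts and were among the 16593 genes tested. The study compared muscle of male HSA-PGC-1a3 transgenic mice, in which the HSA promoter, a skeletal actin promoter active in muscle fibres, drives the PGC-1alpha3 form of a transcriptional coactivator, with muscle of male wild-type mice, 3 libraries each. Strain, age, the number of transgenic founder lines and the number of animals behind a library are not given in the sources used here, so p-values measure the spread between these libraries. Total counts ran from 25532146 to 40846872 per library, and Ppargc1a, the gene the transgene derives from, was at 2449 to 3238 CPM (counts relative to the TMM-scaled library size) with the transgene and 51.1 to 53.5 CPM without it. Reads of the transgene and of the native gene fall in the same row.

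Troponin is the calcium switch of the thin filament. Its C subunit binds calcium, its I subunit holds the filament off and its T subunit anchors the complex to tropomyosin, the coiled coil that lies along actin and covers or frees the sites where myosin binds. Fast and slow skeletal fibres use different genes for each subunit, so the ratio of slow to fast transcripts is commonly read as a fibre type measure. Fast fibres use Tnnt3, Tnni2 and Tnnc2, slow fibres use Tnnt1, Tnni1 and Tnnc1, and Tnnc1 is also the cardiac C subunit. Tnnt2 is the cardiac T subunit, which skeletal muscle makes during development. Of the tropomyosin genes, Tpm1 gives the alpha chain of fast fibres, Tpm2 the beta chain and Tpm3 the slow alpha chain, and each also yields smooth muscle or non-muscle forms by alternative splicing that gene-level counts merge.

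The start-site regions of the fast-fibre or beta-chain members and of the slow members are shown so that their letters can be set beside the values that follow. RefSeq (GRCm38.p6) gave a region of 250 bases before to 50 after a start site for 8 of the 10 members, all but Tnnt3 and Tnni2. Below are the most upstream entries of the 3 fast-fibre or beta-chain members with an entry, then of the 4 slow members, each 5′ to 3′ on the gene's strand. Capitals mark matches, on either strand, to the core promoter element TATAAA, the MCAT element CATTCC or the half-site AAGGTCA of the ERR nuclear receptors.
Tnnc2 (chr2:164779685-164779984, minus strand): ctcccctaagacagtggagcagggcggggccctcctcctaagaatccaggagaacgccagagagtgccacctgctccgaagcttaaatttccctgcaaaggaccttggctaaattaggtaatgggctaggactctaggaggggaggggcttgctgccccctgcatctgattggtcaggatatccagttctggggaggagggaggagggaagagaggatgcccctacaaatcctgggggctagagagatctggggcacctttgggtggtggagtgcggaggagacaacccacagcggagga
Tpm1 (chr9:67049164-67049463, minus strand): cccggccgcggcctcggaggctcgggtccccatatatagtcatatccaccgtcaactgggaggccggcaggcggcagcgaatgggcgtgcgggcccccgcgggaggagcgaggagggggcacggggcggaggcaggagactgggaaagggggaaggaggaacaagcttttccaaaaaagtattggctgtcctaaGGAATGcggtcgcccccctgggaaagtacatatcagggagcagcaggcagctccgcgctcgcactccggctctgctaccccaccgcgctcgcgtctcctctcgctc
Tpm2 (chr4:43523505-43523804, minus strand): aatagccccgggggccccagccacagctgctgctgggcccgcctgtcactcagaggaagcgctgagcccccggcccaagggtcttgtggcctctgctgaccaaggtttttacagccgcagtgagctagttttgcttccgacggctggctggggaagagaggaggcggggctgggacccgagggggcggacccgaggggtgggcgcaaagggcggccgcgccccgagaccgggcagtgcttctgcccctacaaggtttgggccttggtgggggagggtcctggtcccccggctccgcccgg
Tnnt1 (chr7:4515926-4516225, minus strand): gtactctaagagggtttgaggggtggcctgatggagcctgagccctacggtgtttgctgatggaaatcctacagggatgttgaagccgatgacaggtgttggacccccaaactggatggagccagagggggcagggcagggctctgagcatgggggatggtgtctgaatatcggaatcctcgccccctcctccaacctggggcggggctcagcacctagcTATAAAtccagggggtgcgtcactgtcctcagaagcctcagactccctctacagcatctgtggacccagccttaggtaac
Tnni1 (chr1:135799171-135799470, plus strand): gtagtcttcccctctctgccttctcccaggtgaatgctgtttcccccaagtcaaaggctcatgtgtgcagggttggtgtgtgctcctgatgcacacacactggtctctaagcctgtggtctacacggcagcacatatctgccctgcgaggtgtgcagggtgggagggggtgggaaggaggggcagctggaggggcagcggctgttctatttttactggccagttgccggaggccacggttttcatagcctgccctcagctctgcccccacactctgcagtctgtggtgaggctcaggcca
Tnnc1 (chr14:31208062-31208361, plus strand): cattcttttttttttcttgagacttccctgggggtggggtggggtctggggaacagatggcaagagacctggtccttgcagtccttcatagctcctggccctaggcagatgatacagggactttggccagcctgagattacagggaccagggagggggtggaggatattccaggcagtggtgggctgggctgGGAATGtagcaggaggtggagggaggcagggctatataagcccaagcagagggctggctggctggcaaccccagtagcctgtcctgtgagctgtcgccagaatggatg
Tpm3 (chr3:90072401-90072700, plus strand): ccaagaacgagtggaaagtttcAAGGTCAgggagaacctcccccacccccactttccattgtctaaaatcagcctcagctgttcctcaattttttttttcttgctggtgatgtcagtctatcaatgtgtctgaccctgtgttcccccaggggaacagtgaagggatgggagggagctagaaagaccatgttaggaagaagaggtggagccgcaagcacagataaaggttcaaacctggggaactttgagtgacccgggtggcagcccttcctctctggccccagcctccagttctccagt
Tnnt1 held TATAAA with its first base at -30 from the start site. CATTCC lay on the opposite strand, as GGAATG, at -58 in Tnnc1 and at -56 in Tpm1. It also lay at -27, on the gene's own strand, in the first entry of Tnnt2, whose region is not printed. AAGGTCA lay at -228 in the first Tpm3 entry. These letters were found in 13.6%, 14.7% and 4.72% of all 32851 start-site regions of this length, in the same order. The E-box CANNTG occurred in every member's region, as in 72.3% of all regions, and was left in lower case. The MEF2 and CArG consensus motifs, found in 3.19% and 1.63% of all regions, had no match in any of the members' regions. A match is a description of letters and not a binding site.

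The fast members fell. Of the 10 members, 5 passed an adjusted p of 0.05 (edgeR quasi-likelihood test, Benjamini-Hochberg over all genes tested), and all 5 were lower in the transgenic muscle. Over all genes 50.7% passed in either direction, 25.2% as lower and 25.5% as higher, so a call on 5 of 10 is near the background and calls in 1 direction are read against 25.2%. The 5 were Tnnt3, Tnni2, Tnnc2, Tpm1 and Tpm2. The median log2 fold change was -0.52 over the members and -0.02 over all genes tested. The same 5 members, and no other, had transgenic CPM values that did not overlap the wild-type values, where 29.5% of all genes lay apart in that direction. With library totals alone the 5 again passed as lower, where 61.0% of all genes passed, 52.3% as higher and 8.73% as lower. In bulk muscle, fewer fibres of a type and less RNA per fibre cannot be told apart.

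Tnnt3, the fast T subunit (chromosome 7, 142498836 to 142516009, GRCm38), was at 8834, 8702 and 9230 CPM in transgenic replicates 1 to 3 and at 19482, 21514 and 19530 CPM in wild-type replicates 1 to 3. Every transgenic library was below every wild-type library by a wide gap. The log2 fold change, transgenic over wild type, came to -1.18 (standard error, SE, 0.07; edgeR adjusted p = 1.95e-07), which left 44.2% of the wild-type level. Tnni2, the fast inhibitory subunit, lies on the same chromosome (142441808 to 142444410) and was at 3395, 3494 and 3522 CPM against 7723, 8908 and 8408 CPM. Its log2 fold change was -1.27 (SE 0.07, edgeR adjusted p = 1.68e-07). Tnnc2, the fast calcium-binding subunit (chromosome 2, 164777161 to 164779967), was at 4649, 4571 and 4938 CPM against 9485, 10478 and 10215 CPM, a log2 fold change of -1.09 (SE 0.07, edgeR adjusted p = 3.25e-07). The transgenic libraries were close together for all of these genes: the highest transgenic value was at most 1.08 times the lowest. Tnnc2 shares 592 of its 800 exonic bases with Ube2c on the opposite strand. Fragments were counted without strand and for each overlapping gene, so the values of this pair cannot be told apart. Of 11 fast-fibre markers 9 fell and 1, the myosin Myh1, rose, where 25.2% of all genes fell and 25.5% rose. The median log2 fold change of these markers was -0.89, and the fastest myosin, Myh4, was at 19588 to 25113 CPM against 52391 to 53747 CPM. The part of this shift in the troponin result was not tested.

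Both tropomyosin genes of high level also fell. Tpm1 (chromosome 9, 67022590 to 67049406) was at 6265, 7063 and 6500 CPM in transgenic and 16806, 18152 and 15413 CPM in wild-type replicates 1 to 3. Its log2 fold change of -1.35 (SE 0.08, edgeR adjusted p = 2.36e-07) was the largest decrease among the 10 members. Tpm2 (chromosome 4, 43514711 to 43523765) was at 3725, 3252 and 3585 CPM against 5154, 6952 and 6666 CPM, a log2 fold change of -0.83 (SE 0.11, edgeR adjusted p = 1.78e-04). Tpm2 was the least lowered of the called members, and its wild-type values spread the most of these, 1.35-fold from lowest to highest. Smooth muscle also makes Tpm1 and Tpm2 transcripts, and all 7 smooth muscle markers fell too, with a median log2 fold change of -0.89. Their summed level was 2818 to 3077 CPM in transgenic against 3947 to 4529 CPM in wild-type libraries, most of it desmin, which skeletal fibres also make, and none was at 0. The smooth muscle myosin Myh11 itself was at 30.3 to 37.5 against 51.7 to 70.5 CPM. Over all genes 25.2% were called lower and 25.5% higher. Of the other cell types, 4 of 4 endothelial and 2 of 5 fibroblast markers fell, and 1 of 3 macrophage markers rose. The part of these cells in the tropomyosin result was not tested.

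**Figure D1:**
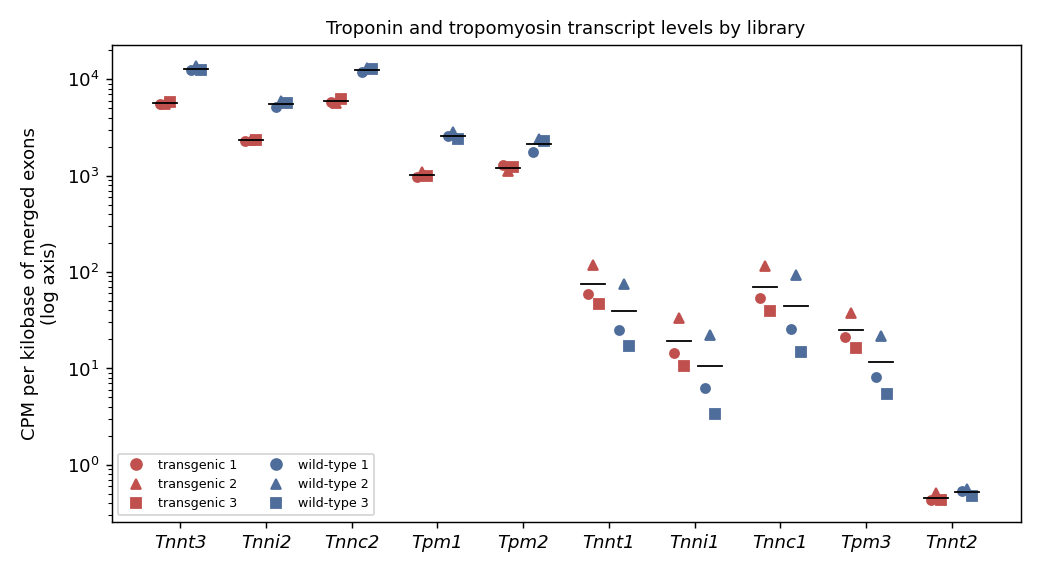
Level of each member in CPM per kilobase of merged exons (log axis) in the 3 transgenic (red) and 3 wild-type (blue) libraries, with symbols for the replicate number and bars for the group mean. The 5 fast or beta-chain members on the left separate by genotype, while the 4 slow members in the middle overlap, with the library numbered 2 highest in either genotype.

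The slow members did not pass the test, and their levels differed more between libraries of 1 genotype than any fast member. Tnnt1, the slow T subunit (chromosome 7, 4504570 to 4516382), was at 131, 258 and 103 CPM in transgenic and 55.5, 165 and 37.6 CPM in wild-type replicates 1 to 3. Tnni1, the slow inhibitory subunit (chromosome 1, 135779434 to 135810989), was at 51.7, 119 and 37.8 CPM against 22.7, 80.1 and 12.2 CPM. Tnnc1, the slow and cardiac calcium-binding subunit (chromosome 14, 31208312 to 31211729), was at 55.9, 120 and 41.1 CPM against 26.9, 96.3 and 15.2 CPM. In all of these the replicate numbered 2 was the highest of its genotype, and wild-type replicate 2 exceeded transgenic replicates 1 and 3. Tpm3, the slow tropomyosin (chromosome 3, 90072649 to 90100902), had the same order, at 130, 229 and 98.2 CPM against 49.2, 132 and 33.3 CPM. Its near-identical copy Tpm3-rs7 was at 0.455 to 1.499 CPM, and the copy Tpm3-rs2 had no counts; reads that fit both a copy and Tpm3 cannot be assigned with certainty.

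The log2 fold changes of the slow members were 0.92 (SE 0.75) for Tnnt1, 0.83 (SE 0.92) for Tnni1, 0.62 (SE 0.89) for Tnnc1 and 1.08 (SE 0.69) for Tpm3. Their edgeR adjusted p-values were 0.376, 0.508, 0.610 and 0.268. Differences of this size did not stand out from the spread between libraries. Of 10 slow-fibre markers 2 rose and 2 fell, with a median of 0.36, where 25.5% of all genes rose and 25.2% fell. Leaving out wild-type replicate 2 alone gave 1.81, 1.99, 1.77 and 1.87, and leaving out transgenic replicate 2 alone gave 0.46, 0.23, 0.08 and 0.69; none of these 4 genes passed in either fit, where 46.2% and 45.4% of all genes did. With both libraries numbered 2 left out, Tnnt1 (1.33, edgeR adjusted p = 0.0246) and Tpm3 (1.46, edgeR adjusted p = 0.0258) passed as higher, where 21.5% of all genes did, while Tnni1 (1.36, adjusted p = 0.101) and Tnnc1 (1.20, adjusted p = 0.105) did not. The 5 fast or beta-chain members stayed lower in every one of these fits.

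**Figure D2:**
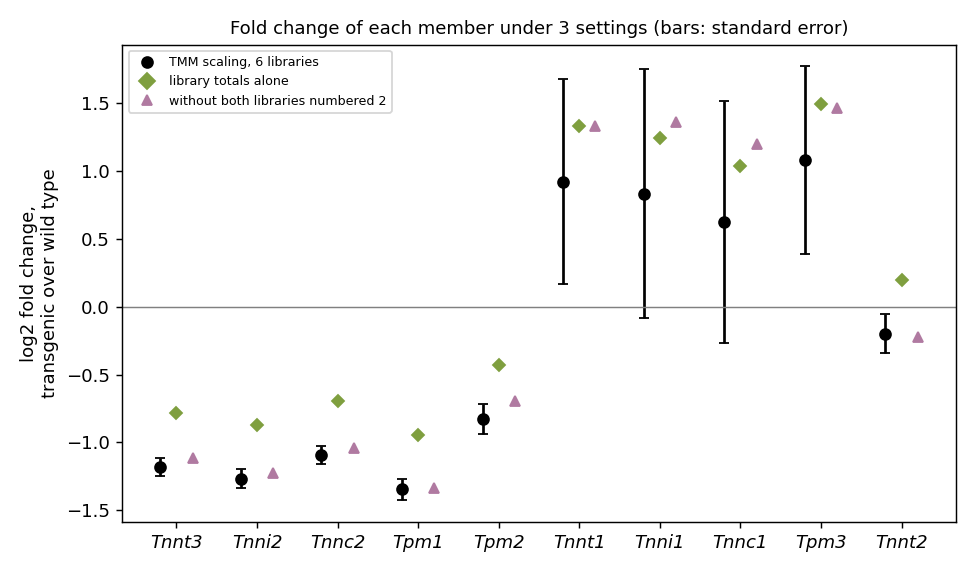
Log2 fold change of each member, transgenic over wild type, with TMM scaling and all 6 libraries (black, bars are the SE), with library totals alone (green) and without both libraries numbered 2 (purple). The 5 members on the left lie below 0 in all 3 settings, and the 4 slow members lie above 0 with wide bars.

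The slow members kept similar proportions to each other and to slow myosin. Of 10490 candidate genes with a mean of at least 5 CPM, the gene whose centred log2 CPM profile was nearest to the mean profile of Tnnt1, Tnni1 and Tnnc1 was Myh7, the slow myosin heavy chain, with a root mean square difference of 0.05 over the 6 libraries. Myh7 was at 392, 827 and 304 CPM with the transgene and 177, 545 and 101 CPM in wild type, replicates 1 to 3. Across the 6 libraries the Tnnt1 count was 30.3% to 37.3% of the Myh7 count, the Tnni1 count 12.1% to 14.7%, the Tnnc1 count 13.5% to 17.7% and the Tpm3 count 24.2% to 33.1%. These are proportions of raw counts, not divided by length. The Tnnc1 proportion was 14.3%, 14.5% and 13.5% in transgenic against 15.2%, 17.7% and 15.1% in wild-type replicates 1 to 3. Mhrt (0.07) and Gm29015 (0.08), the next nearest, overlap Myh7 exons by 484 and 142 bases, so they share its counts. Atp2a2, the slow-fibre calcium pump, came next at a much wider 0.45 and Gm43361, which overlaps it by 83 bases, at 0.50. The Atp2a2 count ran from 91.4% to 240% of the Myh7 count. Atp2a2 was at 575.2 to 1111 CPM in transgenic against 242.5 to 497.9 CPM in wild-type libraries, without passing the threshold. Other slow-fibre markers differed from this profile. Myoz2 and Ankrd2 fell (log2 fold changes -1.24 and -1.05), while Myl6b and Pln rose (1.95 and 1.54). Myl3 was at 59.8 to 166.5 CPM in transgenic against 186.7 to 335.2 CPM in wild-type libraries, without passing the threshold.

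The fast profile, the mean of Tnnt3, Tnni2 and Tnnc2, was nearest to Vamp5, a vesicle fusion protein gene (0.05), Ube2c (0.05), A930016O22Rik (0.05), the fast-fibre tropomodulin Tmod4 (0.05) and Cep83, a centriole protein gene (0.05). Ube2c shares exons with Tnnc2, and A930016O22Rik shares 451 exonic bases with the muscle creatine kinase gene Ckm. Vamp5 was at 31.3, 30.4 and 30.4 CPM in transgenic and 62.3, 72.7 and 67.9 CPM in wild-type replicates 1 to 3. The fast profile lay apart by genotype, while the slow profile did not.

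**Figure D3:**
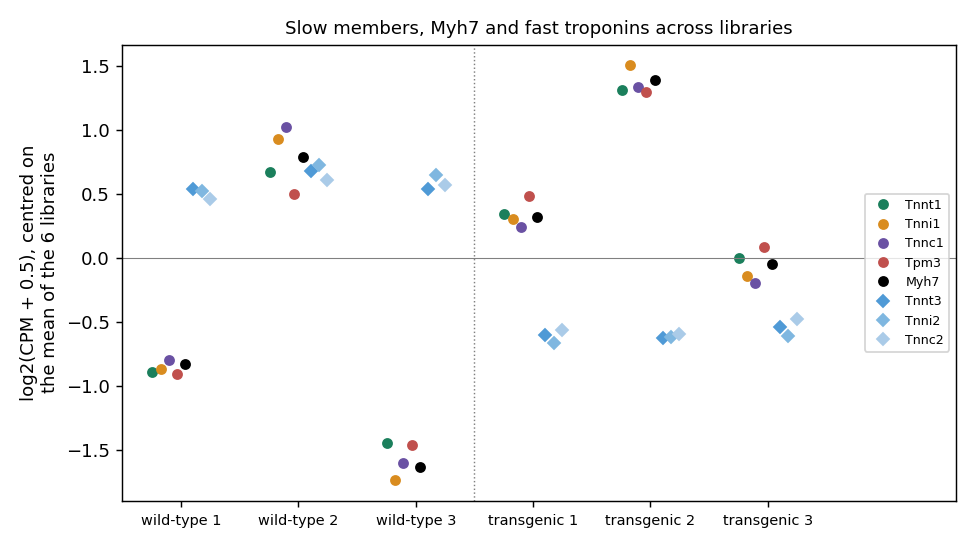
Log2(CPM + 0.5) of the slow members and Myh7 (circles) and of the fast troponins (diamonds), each gene centred on its mean over the 6 libraries. The circles lie together within each library and are highest in transgenic replicate 2 and lowest in wild-type replicate 3, while the diamonds lie above 0 in all wild-type and below 0 in all transgenic libraries.

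Isoform shares set each slow gene against its fast counterpart within a library, from counts per kilobase of merged exons. They do not depend on how libraries are scaled. A share also rises when the rest of its sum falls and the slow gene stays level. Tnnt3, Tnni2 and Tnnc2 were at 44.2%, 41.6% and 46.9% of wild type, while the levels of Tnnt1, Tnni1 and Tnnc1 overlapped between genotypes. How much of a share difference comes from either gene was not tested. The Tnnt1 share of troponin T transcripts was 1.05%, 2.08% and 0.796% in transgenic against 0.204%, 0.547% and 0.138% in wild-type replicates 1 to 3. The means were 1.31% ± 0.680 and 0.296% ± 0.220 (SD, n = 3 each; exact two-sided permutation p = 0.1, adjusted p = 0.12 over 6 shares). All transgenic values lay above all wild-type values, and 0.1 is the smallest p that 3 libraries against 3 can give. The Tnni1 share of troponin I was 0.630%, 1.40% and 0.444% against 0.122%, 0.372% and 0.0601%, again with no overlap (exact permutation p = 0.1, adjusted p = 0.12). The Tnnc1 share of troponin C was 0.916%, 1.98% and 0.636% against 0.218%, 0.702% and 0.115%. Here wild-type replicate 2 lay above transgenic replicate 3 (exact permutation p = 0.2, adjusted p = 0.2). These sizes rest in part on transgenic replicate 2. Without it the difference between the means fell from 1.01 to 0.628 percentage points for troponin T, from 0.640 to 0.352 for troponin I and from 0.833 to 0.431 for troponin C. Without division by length the Tnni1 share had a mean of 1.96% with the transgene against 0.443% without it, since the merged exons of Tnni1 are longer than those of Tnni2. The fast gene supplied nearly all transcripts of each troponin subunit in every library.

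For tropomyosin the Tpm3 share of Tpm1, Tpm2 and Tpm3 together was 0.939%, 1.67% and 0.717% in transgenic against 0.185%, 0.415% and 0.117% in wild-type replicates 1 to 3. The Tpm1 share was 42.6%, 48.5% and 44.5% against 59.3%, 53.7% and 50.9%, and the Tpm2 share was 56.5%, 49.8% and 54.8% against 40.5%, 45.9% and 49.0%. Neither share overlapped between genotypes, nor did that of Tpm3 (exact permutation p = 0.1 each, adjusted p = 0.12). Tpm1 and Tpm2 make up nearly all of the sum, so their shares mirror each other and are not separate results. The Tpm2 share was higher in transgenic muscle although the Tpm2 level was lower (log2 fold change -0.83). Tpm2 thus held the larger mean share in transgenic muscle, 53.7% ± 3.46 against 45.2% ± 3.02 for Tpm1, and Tpm1 in wild-type muscle, 54.6% ± 4.29 against 45.1% ± 4.30 (SD, n = 3). That order in transgenic muscle rests on the length used: with the longest transcript of each gene in place of merged exons, Tpm1 averaged 57.6% and Tpm2 40.8% there, against 66.7% and 33.0% in wild-type muscle. The direction of the genotype difference was the same with either length. Without both libraries numbered 1 the difference between the means was -5.76 percentage points for Tpm1 and 4.83 for Tpm2, against -9.40 and 8.53 with all 6 libraries. For Tpm3 the difference of 0.871 percentage points fell to 0.589 without transgenic replicate 2.

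**Figure D4:**
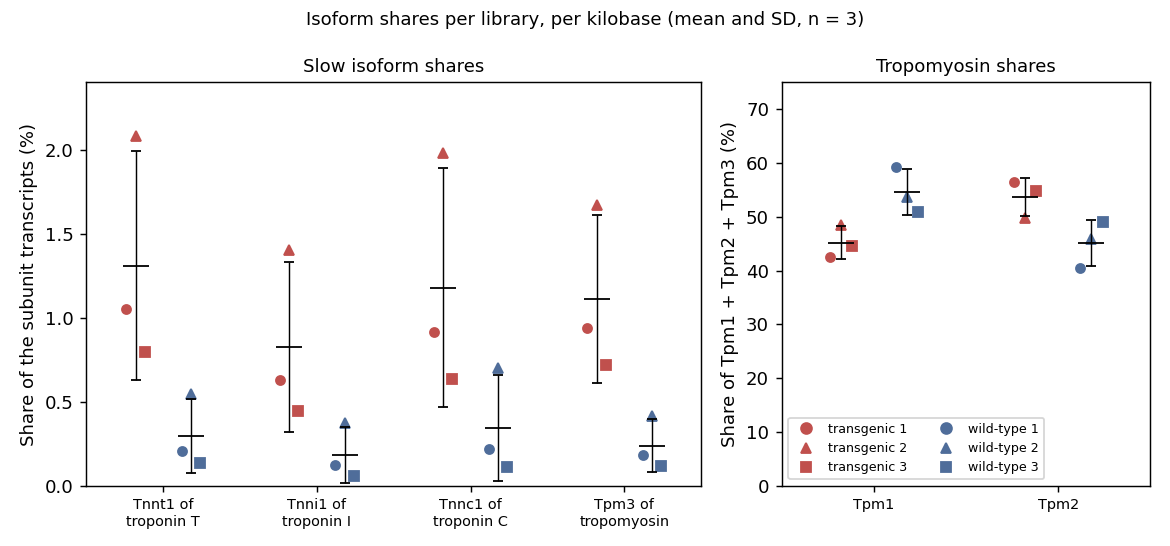
Share of each slow isoform in its subunit's transcripts (left) and shares of Tpm1 and Tpm2 (right), in percent of counts per kilobase, by library, with mean and SD of 3 libraries. Transgenic values lie above wild-type values without overlap for Tnnt1, Tnni1, Tpm3 and Tpm2, below them for Tpm1, and overlap for Tnnc1.

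Summed over its genes, each subunit was lower by a similar ratio. Troponin T genes together were at 5615 to 5878 CPM per kilobase in transgenic against 12333 to 13666 in wild-type libraries, a 2.24-fold difference of the means. The corresponding ratios were 2.39 for troponin I, 2.11 for troponin C and 2.11 for tropomyosin. In order of level per kilobase of merged exons, Tnnt3 (12745 ± 733) and Tnnc2 (12574 ± 643) led in wild-type muscle and did not differ beyond their spread. Tnni2 (5575 ± 397) followed, then Tpm1 (2589 ± 211) and Tpm2 (2151 ± 332), which overlapped, then Tnnc1 (44.3 ± 42.1), Tnnt1 (39.0 ± 31.2), Tpm3 (11.7 ± 8.66) and Tnni1 (10.6 ± 10.2), whose spreads overlapped widely, and Tnnt2 (0.525) was last (SD, n = 3). In transgenic muscle Tnnc2 (5899 ± 241) and Tnnt3 (5636 ± 174), whose spreads overlapped, came first. Tnni2 (2318 ± 44.7), Tpm2 (1210 ± 83.5) and Tpm1 (1019 ± 63.2) followed. Compared within single libraries, Tnnc2 lay above Tnnt3 in every transgenic library and Tpm1 above Tpm2 in every wild-type library. The order within these pairs rests on the length used. Per kilobase of each gene's longest transcript, a setting chosen after seeing the data, Tnnt3 lay above Tnnc2 without overlap in wild-type muscle (18056 to 19939 against 13550 to 14968) and in transgenic muscle (8065 to 8554 against 6530 to 7054). Tpm1 then lay above Tpm2 in both genotypes as well, at 5810 ± 474 against 2877 ± 444 in wild-type and 2287 ± 142 against 1619 ± 112 in transgenic muscle (SD, n = 3). Tnnt3 ranked 5th and Tnnc2 6th of all genes by merged-exon level in wild-type muscle, and 10th and 9th in transgenic muscle. The 10 members took 5.20% to 5.65% of all counts in wild-type and 3.12% to 3.21% in transgenic libraries.

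Tnnt2, the cardiac T subunit (chromosome 1, 135836354 to 135852260), was near the bottom of the group, at 3.35, 3.93 and 3.38 CPM in the transgenic libraries and 4.202, 4.35 and 3.65 CPM in the wild-type ones, replicates 1 to 3. The groups overlapped, and the log2 fold change of -0.20 (SE 0.14, edgeR adjusted p = 0.266) did not pass. With library totals alone the sign turned, to 0.20. The cardiac inhibitory subunit Tnni3 had 3 to 12 counts per library, under the filter on low counts. Of 8 cardiac markers 5 were tested and 2, Myom2 and Myl4, fell, where over all genes 25.2% fell and 25.5% rose. Myom2, at 1092 to 1117 CPM in transgenic against 1606 to 1710 CPM in wild-type libraries, made up nearly all of the list's summed level. Nppa had 12, 17 and 13 counts in transgenic against 1, 10 and 4 in wild-type replicates 1 to 3. Its log2 fold change of 1.23 (SE 0.535) did not pass. The defining Nppb had 0 or 1 and Myl7 0 to 2 counts per library. Of 7 markers of embryonic or regenerating muscle 6 were tested: the embryonic myosin Myh3 fell (log2 fold change -0.86, SE 0.17), and the myogenic factor Myog (1.66, SE 0.26) and the adhesion molecule Ncam1 (0.49, SE 0.14) rose.

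Other thin-filament and associated genes, called thin-filament genes for short, fell more often than they rose. The list took in Ldb3, Nrap, Xirp1, Xirp2, Klhl40, Klhl41 and Kbtbd13 as associated genes. Lmod1, which fell, was also among the smooth muscle markers. Of 24 listed genes 23 were tested, and 15 fell and 1 rose, where 25.2% of all genes fell and 25.5% rose. Their median log2 fold change was -0.33. When scaled by library totals, 7 fell and 4 rose, where 8.73% of all genes fell and 52.3% rose. The median was then 0.07, where the median of all genes was 0.38. Of those that fell, the smallest p-values belonged to Tmod4, which caps the slow-growing end of the filament (-1.18, SE 0.06), the actin-binding repeat protein gene Xirp2 (-1.08, SE 0.06), skeletal actin Acta1 (-0.97, SE 0.07) and Tmod1 (-0.72, SE 0.06). Lmod2, a leiomodin that nucleates actin filaments, was the gene that rose (0.78, SE 0.23, edgeR adjusted p = 0.0400). Its CPM was 350, 217 and 305 in transgenic against 136, 185 and 188 in wild-type replicates 1 to 3. That call ended without transgenic replicate 1 (0.65) or 3 (0.75), or without wild-type replicate 1 (0.64), 2 (0.84) or 3 (0.85). The remaining tropomyosin gene, Tpm4, mainly a non-muscle form, was at 27.5 to 30.0 against 35.2 to 37.6 CPM. It fell with TMM scaling (-0.33, SE 0.06, edgeR adjusted p = 0.00126), and its value was 0.07 with library totals alone.

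**Figure D5:**
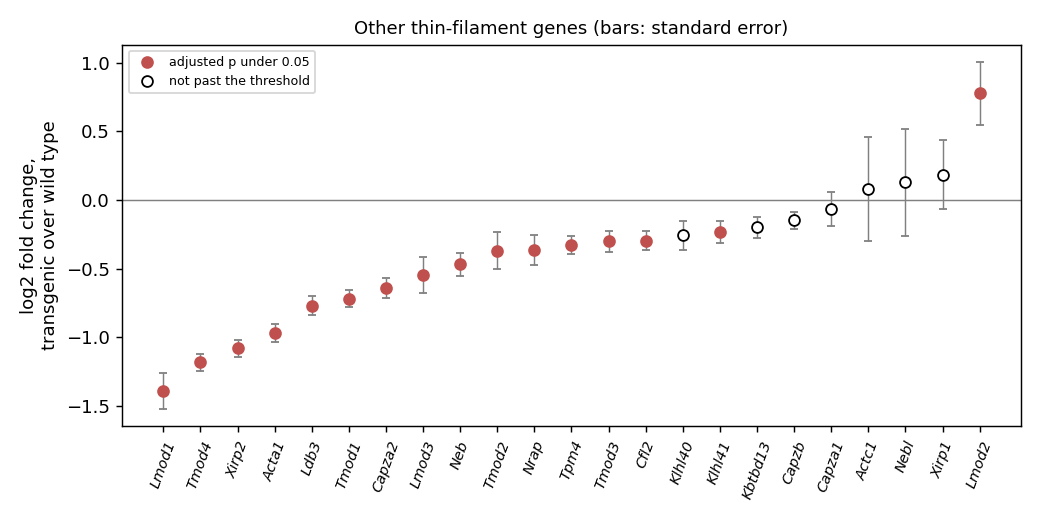
Log2 fold change (transgenic over wild type, TMM scaling, bars are the SE) of the 23 tested thin-filament and associated genes outside the group, ordered by value. Filled points passed an adjusted p of 0.05: 15 lie below 0 and 1, Lmod2, above. Of all genes tested 25.2% passed as lower and 25.5% as higher.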

How the data were processed

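Per the submitters' processing notes, the authors used STAR 2.5.0a, featureCounts 2.0.0, DESeq2 and the GRCm38.p6 build on reads from gastrocnemius RNA. Counting ignored strand and gave a fragment to every gene it overlaps, per the file headers. The deposited counts are raw, 1 column a library. The authors' deposited table of their own comparison lists 3614 genes with a log2 fold change, a p-value and its adjusted form.

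Columns were matched to samples by name. Symbols, positions and exon lengths came from GENCODE M21 (GRCm38), which matched 51718 of 51911 IDs. In R 4.3.3, genes were filtered with filterByExpr, scaled with TMM factors and tested across all genes with edgeR 4.0.16 (robust quasi-likelihood F test, genotype alone, Benjamini-Hochberg, threshold 0.05). SE is the absolute log2 fold change over the square root of F. CPM uses TMM-scaled sizes; 3 counts equal 0.0804 to 0.134 CPM. Shares were compared with exact permutation tests (SciPy 1.17.1). The fit was tested on simulated data. Same-group libraries differed beyond sampling noise (chi-square over degrees of freedom 9.92 to 24.0).

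The members, marker lists and tests were chosen with earlier results of these data known. Named genes are Ppargc1a, the members, up to 4 called thin-filament genes per direction by smallest p, Tnni3, Tpm4, the 5 genes nearest each profile, and markers set beside a member. Tpm3-rs7, Ube2c and Ckm were named after their values or overlaps were seen. Alternatives were other scaling, filters, DESeq2 1.42.0, limma-voom 3.58.1, no robust step, no mitochondrial genes, a replicate block and libraries left out.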

Additional observations from a re-analysis of the deposited data

How the results depend on the processing

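Each member was recomputed under 19 alternatives. Tnnt3, Tnni2, Tnnc2, Tpm1 and Tpm2 stayed lower and past the threshold in all of them, with log2 fold changes of -1.21 to -0.78, -1.33 to -0.87, -1.14 to -0.70, -1.41 to -0.95 and -0.99 to -0.43. The upper end came from library totals alone, which moved the median of all genes by 0.396. That setting called 8676 genes higher and 1448 lower, against 4230 and 4189 with TMM, and turned Tnnt2 to 0.20 and Tpm4 to 0.065. Each of the 6 shares kept its direction under its alternatives. Removing 1 library at a time left the number of called members at 5 and the thin-filament calls at 12 to 16. All calls were then 7449 to 7888, or 43.8% to 46.5% of the genes tested.

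Same-numbered libraries did not deviate together (correlations 0.11, -0.05 and -0.14 over 16593 genes), so the number was not taken as a pairing, and transgenic replicates 2 and 3 correlated best with another number. With a replicate block 7 members were called, Tnnt1 (1.10, edgeR adjusted p = 0.0150) and Tpm3 (1.24, edgeR adjusted p = 0.00705) now higher. All calls came to 8331 in that fit, or 50.2% of the genes tested, with 25.1% called higher. Lmod2 was no longer called there (0.76). The Lmod2 call also ended with no filter on low counts (0.82) and without both libraries numbered 1 (0.49) or 3 (0.84). Exchanging genotype within numbers gave shares an exact permutation p of at least 0.25, the smallest it allows. Counting depth did not limit the members, with at least 82 counts in every library for Tnnt2. The slow genes varied 2.33-fold to 6.58-fold between libraries of 1 genotype.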

Other observations

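The authors' deposited table lists 5 of the 10 members, the same 5 that fell here. That table holds no gene with an absolute log2 fold change under 0.585. It comes from the same study, so the match is not independent. Its log2 fold changes are -1.18 for Tnnt3, -1.25 for Tnni2, -1.33 for Tpm1 and -0.82 for Tpm2, each within 0.02 of the edgeR value. For Tnnc2 the authors' deposited table gives -1.25, against -1.09 here, a gap of -0.16 that stands apart from the other members. DESeq2 run here on the deposited counts also gave -1.09. What lies behind the gap was not tested. Tnnc2 is the member whose exons overlap another gene by 74.0%, and Ube2c, the overlapping gene, was counted at 4430 to 4802 CPM in transgenic and 9166 to 10150 CPM in wild-type libraries, nearly the Tnnc2 values. Ube2c encodes a ubiquitin-conjugating enzyme of the cell cycle, and how much of its count comes from Tnnc2 fragments was not tested.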
